A study of Mus musculus with 40 samples.

Results

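The change in transcript levels between 1 and 4 weeks of age was compared between the kidney and the heart of the mouse, gene by gene. The comparison rests on 19 of the 40 arrays of the study, 1 array per sample: 5 of kidney at 1 week, 5 of kidney at 4 weeks, 4 of heart at 1 week and 5 of heart at 4 weeks. All were chosen by the age and organ on their labels, and 1 further array labelled heart at 1 week was left out for its lung transcripts, as described below. Every animal was a male C57BL/6 mouse with no treatment or allele named, and RNA came from the organ as a whole. Organs of 1 week are labelled as rapidly proliferating and those of 4 weeks as slowly proliferating, and the study asks how gene expression differs between fast and slow growth. It also holds lung at the same ages and kidney and lung at 8 weeks. The quantity of interest is the difference between organs: the log2 change from 1 to 4 weeks in kidney minus the same change in heart. Genes that went opposite ways, and genes that changed in 1 organ while the other stayed close to its starting level, are described in turn.

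Both organs mature in this interval, in different ways. In the kidney, the formation of new nephrons ends in the first days after birth, and the tubules then take on their adult load of reabsorption, secretion and metabolism while the early interstitium recedes. In the heart, muscle cells stop dividing and grow by enlarging, fetal isoforms of the contractile proteins give way to adult ones, and the ion channels that shape the adult action potential are built up. Around weaning the diet changes from fat-rich milk to chow, and both organs adjust their use of fat and sugar. Resident macrophages settle in both organs around birth and are partly renewed afterwards.

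Labels were set against defining transcripts before the comparison. The kidney genes Umod, Lrp2, Slc34a1 and Aqp2 were high on all 10 kidney arrays and at most 253.9 on the 9 heart arrays used. The heart genes Myh6, Tnni3, Myl2 and Ryr2 were high on those heart arrays and at most 324.6 on the kidney arrays. The array left out, labelled heart 1 week replicate 5, gave 27190 for the lung surfactant gene Sftpc and 2396 for Myh6, against 36520.6 to 44802.8 for Myh6 on the heart arrays kept at that age. Some lung signal was also present on heart arrays kept. Sftpc spanned 125 to 1072.5 there at 1 week and 116.1 to 1013.2 at 4 weeks. The lung marker Scgb1a1 spanned 6.1 to 1144.6 and then 8.8 to 1656.8. On the kidney arrays Sftpc was at most 263.4 and Scgb1a1 at most 104. The part of lung tissue in the heart values was not tested. Transcripts of the liver were raised on the kidney arrays of 1 week: 20 liver markers summed to 27680 to 66910 there and to 11360 to 13960 at 4 weeks, and Alb reached 11531.1 on replicate 1. The difference between 3′ and 5′ probe sets of actin, a sign of RNA degradation, spanned 0.339 to 0.506 (log2) in kidney at 1 week and 0.605 to 1.43 at 4 weeks, and 0.361 to 0.587 and then 0.44 to 0.667 in heart. Its part in the results was not tested. In whole organs, fewer cells of a type and less RNA per cell cannot be told apart. Nothing in the labels states whether arrays of different organs came from the same animals. At each age some kidney and heart arrays share a number in their description.

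Among 14041 genes tested, 2590 (18.4%) differed in their change between the organs at an adjusted p under 0.05 in limma. The kidney change lay above the heart change for 1130 genes (8.05%) and below it for 1460 (10.4%), and 1302 of the differences were at least 2-fold. Thus 43.6% of the differences had the kidney above. With each array centred on its median the balance turned, to 51.3% above and 857 genes below, and 931 genes lay below with the left-out heart array put back as labelled. In kidney alone 2083 genes (14.8%) rose and 3351 (23.9%) fell, and in heart alone 1544 (11%) rose and 2074 (14.8%) fell. Signals here are linear array intensities with a trimmed mean of 500, and every log2 change is taken on log2(signal + 16), a scale on which folds come out too small where the signal is low. A signal of 117.9 in at least 1 group was needed for a test. The arrays of both ages did not overlap for 29.9% of genes in kidney, 22.7% in heart and 11.5% in both. The median gene changed by -0.05 in kidney and -0.04 in heart, and the median difference was -0.03.

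Most genes called in both organs moved the same way. Of 2253 such genes, 1977 had the same direction, and 365 of these still differed in size. The remaining 276 went opposite ways, and the difference between organs was called for all 276. Of these, 14 that rose in kidney and 7 that fell in kidney had group means under 117.9 at both ages in 1 organ. Both counts were sensitive to the processing: median centring left 65 of the first kind and 71 of the second, a fit of all groups' 38 arrays gave 204 of the first, and the left-out heart array put back as labelled gave 85 of the second. A further 243 genes changed at least 2-fold in kidney with a heart change whose 95% interval lay within 1.5-fold either way, and 82 did so in heart with the kidney within that range. That interval bounds the other organ's change but does not show it to be absent.

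**Figure D1:**
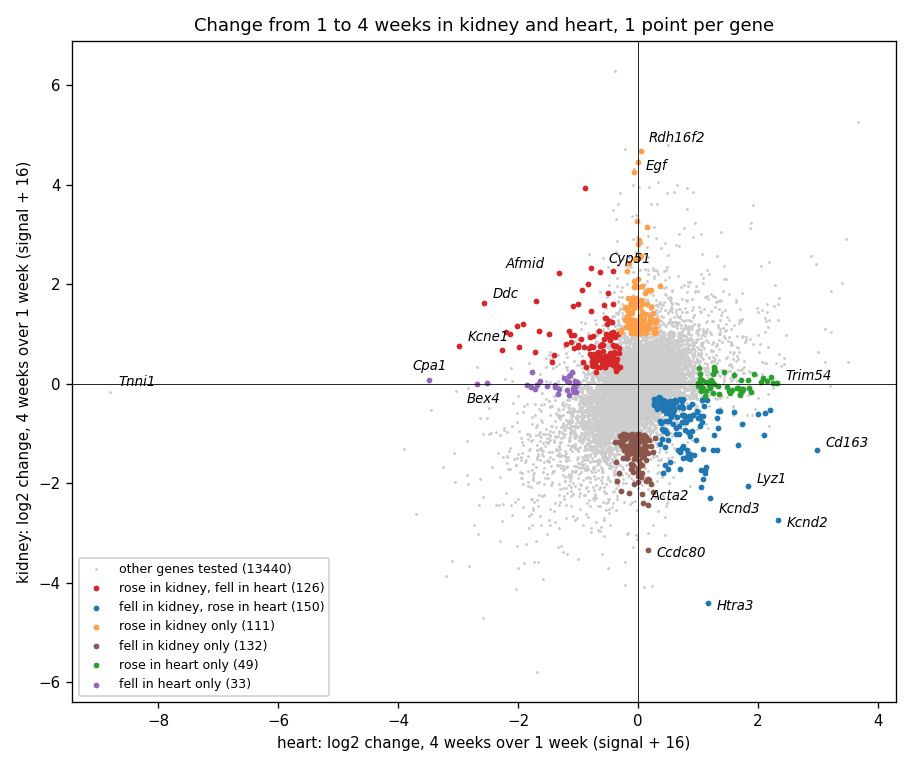
Log2 change from 1 to 4 weeks in heart (horizontal) and kidney (vertical) for the 14041 genes tested, 1 point per gene. Genes in grey belong to none of the 6 sets. The 126 genes that rose in kidney and fell in heart (red) lie at the upper left, and the 150 that fell in kidney and rose in heart (blue) at the lower right. Genes that changed in 1 organ lie along the axes.

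Transcripts of cell division fell in both organs. Mki67, the proliferation antigen, fell in kidney from 1325 ± 381 (SD, n = 5) to 337 ± 79.8 (SD, n = 5) and in heart from 1640.0 ± 1227 (SD, n = 4) to 379 ± 179 (SD, n = 5). Its log2 change was -1.90 in kidney and -1.94 in heart, a difference of 0.04 with a 95% interval of -1.06 to 1.14. Of 67 cell cycle genes tested, 57 fell in kidney and 58 in heart, with median changes of -1.24 and -1.49. The difference was called for 9 (13.4%, against 18.4% of all genes). The ribonucleotide reductase gene Rrm2 (kidney -1.39, heart -3.07) and the thymidine kinase gene Tk1 (kidney -0.69, heart -2.63), which supply nucleotides for DNA synthesis, were among them, with the lower change in heart; the kidney change of Tk1 was not called. Of 55 genes of oxidative phosphorylation, 52 rose in kidney and 48 in heart, by a median of 0.62 and 0.49. Their difference was called for 1 (1.82%). Of 25 ribosomal protein genes none differed by limma, against 4 at an unadjusted p under 0.05, all with the kidney below. The growth factor gene Igf2 fell in both organs (kidney -2.27, heart -2.58), and its difference of 0.31, SE 0.29 was not called.

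Rises in kidney against falls in heart comprised 126 genes, which is 0.897% of those tested. The median member changed by 0.65 in kidney and by -0.63 in heart, and 12 members changed at least 2-fold in both organs. In 54 the ages did not overlap in either organ, against 11.5% of all genes, which the choice of members favours. Enzymes of amino acid, folate and sterol metabolism stood among those with the largest differences. Beside the probe set used, 132 other probe sets named 73 of these genes, and 124 had a difference of the same sign.

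Ddc encodes aromatic L-amino acid decarboxylase, which makes dopamine and serotonin from their precursors and in the proximal tubule supplies renal dopamine. Its signal on the kidney arrays was 922, 1017, 971, 1175 and 787 at 1 week and 3225, 2731, 3200.0, 2753 and 3092 at 4 weeks. On the heart arrays it was 3339, 2628, 2614 and 3101 at 1 week and 463, 471, 446, 491 and 519.9 at 4 weeks. Neither organ's ages overlapped, and the organ with the higher level switched: the heart of 1 week stood near the kidney of 4 weeks. The gene rose 3.06-fold in kidney and fell 5.92-fold in heart, a difference of 4.18, SE 0.16 on the log2 scale (adjusted p = 8.2e-12 in limma). Kidney at 8 weeks, which the comparison does not use, gave a mean of 5109.

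Kcne1 encodes a small subunit that slows the cardiac potassium channel of the late repolarizing current. On the heart arrays its signal was 4260.1, 4079, 4979 and 5671 at 1 week and 855, 447, 794, 414 and 518 at 4 weeks. On the kidney arrays it was 127, 107, 100.3, 107 and 109 at 1 week and 251, 127, 215, 219.9 and 190.3 at 4 weeks, around the level needed for a test. The heart fell 7.93-fold with no overlap between ages, the kidney rose 1.69-fold with overlapping arrays, and the difference was 3.74, SE 0.28 (adjusted p = 4.5e-08).

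Afmid, a kynurenine formamidase of tryptophan breakdown, gave 237, 231, 227, 259 and 224 in kidney at 1 week and 1113, 1009, 1225, 1143 and 1311 at 4 weeks. In heart it gave 331, 512, 554 and 561 at 1 week and 202, 267, 179, 119 and 179 at 4 weeks, again with no overlap in either organ. The difference was 3.53, SE 0.24 (adjusted p = 1.3e-08). Shmt1, the cytosolic serine hydroxymethyltransferase of folate metabolism, had kidney arrays at 1003 to 1303 and 2292 to 2756, and heart arrays at 228 to 438 and 17.7 to 148. Sardh, the mitochondrial sarcosine dehydrogenase, rose from 1197 ± 129 (SD, n = 5) to 2786 ± 268 (SD, n = 5) in kidney and fell from 651 ± 59.3 (SD, n = 4) to 179 ± 85.9 (SD, n = 5) in heart. Pcbd1, a cofactor-recycling enzyme of phenylalanine hydroxylation, rose 1.56-fold in kidney and fell 3.3-fold in heart.

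Cyp51, the lanosterol demethylase of cholesterol synthesis, gave 559, 678, 676, 765 and 584 in kidney at 1 week and 3176, 3286, 3004, 3414 and 2851 at 4 weeks. Its heart arrays gave 346, 237, 250.0 and 249.6 at 1 week and 124, 221, 160.3, 178 and 166 at 4 weeks. The kidney rose 4.75-fold and the heart fell 1.55-fold, with the arrays of both ages apart in each organ. Nsdhl, which acts later in the same pathway, rose in kidney (0.46) and fell in heart (-0.40). Of 22 genes of cholesterol and fatty acid synthesis, 7 rose and 5 fell in kidney, 3 rose and 6 fell in heart, and all 5 with a called difference (22.7%, against 18.4% of all genes) had the kidney change above the heart change. The median of that list was 0.26 in kidney and -0.29 in heart.

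Fuel enzymes with a muscle and a non-muscle isoform parted between the organs in several cases. Pygm, the muscle glycogen phosphorylase, gave 6162, 4709, 5726 and 5804 in heart at 1 week and 13681, 12735, 9805, 9796 and 12352 at 4 weeks, against 307, 328, 317, 453 and 381 and then 89.2, 80.5, 103, 75.1 and 31.8 in kidney. It rose 2.07-fold in heart and fell 4.2-fold in kidney (difference -3.12, SE 0.28, adjusted p = 3.5e-07). Pygb, the brain isoform, also rose in heart (0.57) and fell in kidney (-0.52). Pygl, the liver isoform, fell in heart and stayed near its level in kidney: the heart arrays gave 767, 942, 1047 and 1002 and then 325, 256, 238, 346 and 243, the kidney arrays 1037 to 1304 and then 1105 to 1290.3.

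Hk2, the insulin-sensitive hexokinase of muscle, gave 4162, 2582, 2706 and 2592 in heart at 1 week and 7807, 7557, 6939, 6903 and 7746 at 4 weeks. In kidney it gave 258, 232, 332, 317 and 239 and then 235, 114, 131, 30.3 and 75.5, so that the kidney arrays overlapped and the heart arrays did not. Its difference was -2.65, SE 0.43 (adjusted p = 0.00024). Aldoc, an aldolase isoform best known from brain, went the other way, from 349 to 490.3 to 1234 to 1344 over the kidney arrays and from 176 to 335 to 61.4 to 221 over the heart arrays, which overlapped. Ckb, the brain-type creatine kinase, rose 2.08-fold in kidney and fell 1.58-fold in heart. Cpt1a, the liver isoform of the enzyme that admits long-chain fatty acids to mitochondria, rose in kidney (5204 ± 279.6 (SD, n = 5) to 7341 ± 962 (SD, n = 5)) and fell in heart (2853 ± 417 (SD, n = 4) to 1746 ± 226 (SD, n = 5)). Its muscle counterpart Cpt1b was not among the genes tested. Of 39 genes on the list of isoform pairs, 14 differed (35.9%, against 18.4% of all genes), 7 in each direction. Pcx, the pyruvate carboxylase that feeds oxaloacetate to gluconeogenesis and the citrate cycle, rose in heart (1.07) and fell in kidney (-0.33).

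**Figure D2:**
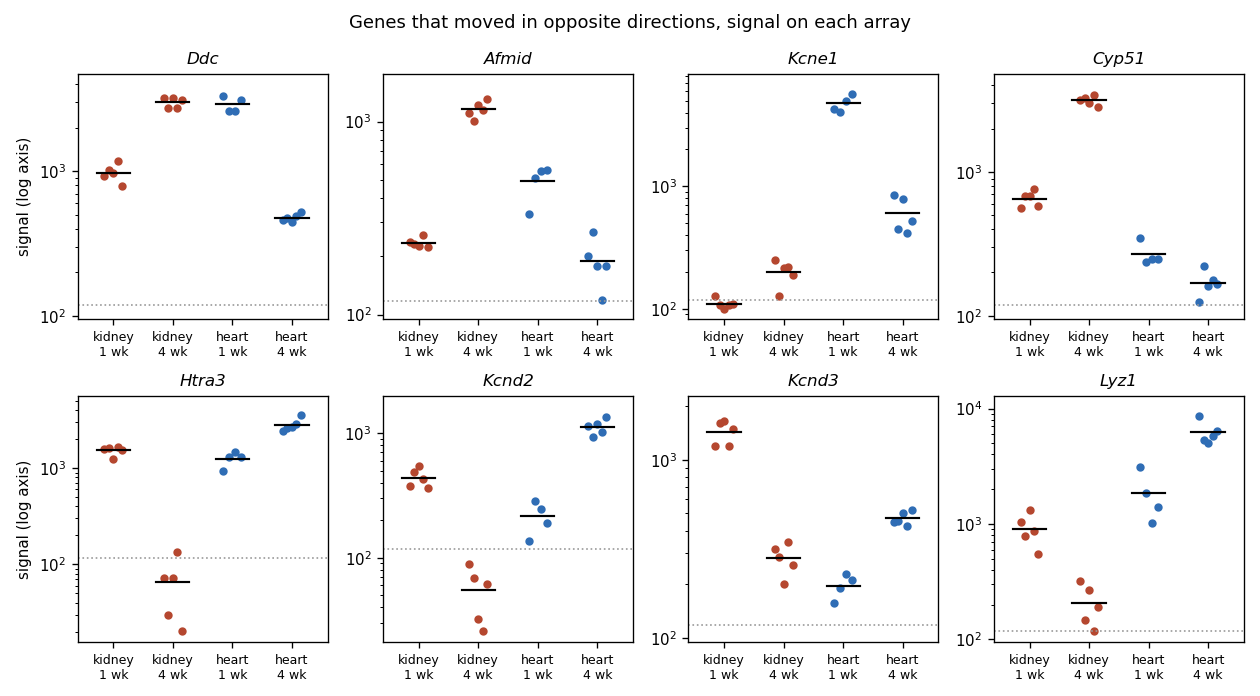
Signal on each array (log axis) of 8 genes that moved in opposite directions, with kidney arrays in red and heart arrays in blue at 1 and 4 weeks. Bars are the means of 5 arrays, or of 4 for heart at 1 week, and the dotted line is the signal of 117.9 needed for a test. Ddc, Afmid, Kcne1 and Cyp51 rose in kidney and fell in heart, and Htra3, Kcnd2, Kcnd3 and Lyz1 did the reverse.

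Falls in kidney against rises in heart comprised 150 genes, 1.07% of those tested, with a median of -0.64 in kidney and 0.66 in heart. Of these, 17 changed at least 2-fold in both organs. In 89 the ages did not overlap in either organ, against 11.5% of all genes, which the choice of members favours. Of 135 other probe sets for 81 of the genes, 128 had a difference of the same sign. Potassium channel subunits, macrophage transcripts and secreted proteins of the matrix stood at the head.

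Htra3 encodes a secreted serine protease. Its signal on the kidney arrays was 1564, 1616, 1237, 1675 and 1538 at 1 week and 72.5, 29.8, 71.5, 135 and 20.2 at 4 weeks. On the heart arrays it was 943, 1292, 1453 and 1309 at 1 week and 2441, 2582, 2665, 2883 and 3571 at 4 weeks. The organs started at like levels and ended far apart, with a kidney change of -4.41, SE 0.27, a heart change of 1.17, SE 0.29 and a difference of -5.59, SE 0.40 (adjusted p = 1.9e-08). Only 1 of its other 2 probe sets had a difference of the same sign, and with the mean over its probe sets the difference was -2.46. Kidney at 8 weeks averaged 49.2.

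Kcnd2 and Kcnd3 encode the pore subunits of the fast transient outward potassium current, which sets the early repolarization of the adult mouse ventricle. Kcnd2 gave 136, 286, 245 and 191 in heart at 1 week and 1145, 923, 1174, 1024 and 1347 at 4 weeks, and 378, 488, 542, 428 and 359.8 and then 88.3, 69.4, 32.4, 25.6 and 61.9 in kidney. The heart rose 5.06-fold and the kidney fell 6.67-fold, with no overlap in either. Kcnd3 gave 157, 189.5, 227 and 210.2 in heart at 1 week and 447, 454, 505, 423 and 521 at 4 weeks, and 1191, 1609, 1658, 1192 and 1493 and then 317, 285, 200.2, 345 and 256 in kidney. The difference was -5.08, SE 0.34 for Kcnd2 (adjusted p = 1e-08) and -3.50, SE 0.21 for Kcnd3 (adjusted p = 2.4e-09), and 2 of 2 other probe sets of each had the same sign. On these probe sets both transcripts were brighter in kidney than in heart at 1 week and the reverse at 4 weeks.

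Other genes of excitation followed the same pattern in part. Cacna2d1, an auxiliary subunit of voltage-gated calcium channels, rose in heart from 1251 ± 253 (SD, n = 4) to 3959.8 ± 216 (SD, n = 5) and fell in kidney from 313 ± 59.0 (SD, n = 5) to 124 ± 20.9 (SD, n = 5). The potassium channel gene Kcna5 (kidney -0.75, heart 0.47) and Fxyd1, the sodium pump regulator phospholemman (kidney -1.33, heart 0.67), also went opposite ways. Gja1, which encodes the gap junction protein connexin 43, fell in kidney (-1.41) with a heart change of -0.18. Of 28 genes on this list, 3 rose and 12 fell in kidney, and 9 rose and 2 fell in heart. The kidney change lay below the heart change for 14 (50%, against 10.4% of all genes) and above it for 2 (7.14%, against 8.05%). The list's median was -0.45 in kidney, 0.15 in heart and -0.98 for the difference, against -0.03 over all genes. Both exceptions, Kcne1 and the sodium-calcium exchanger gene Slc8a1 (0.75 in kidney, -0.48 in heart), had the kidney change above. Slc8a1 also serves calcium reabsorption in the distal tubule.

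Macrophage transcripts rose in heart, and several fell in kidney. Lyz1, a lysozyme, gave 3113, 1841, 1026 and 1404 in heart at 1 week and 8573, 5378, 4994, 5818 and 6366 at 4 weeks. In kidney it gave 1032, 779.6, 1309, 864 and 544 and then 318, 146, 267, 118 and 190.3. Neither organ's ages overlapped, and the difference was -3.91, SE 0.43 (adjusted p = 3.5e-06). Lyz2, its close paralog and a gene of myeloid cells, rose 3.31-fold in heart and fell 1.76-fold in kidney, though probe sets of near-identical genes can share signal.

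Cd163, the haemoglobin scavenger receptor of resident macrophages, gave 54.6, 115, 74.5 and 72.7 in heart at 1 week and 402, 845, 875, 955 and 683 at 4 weeks. The kidney arrays gave 30.5, 66.8, 101, 53.8 and 74.0 and then 47.3, 4.8, 3.6, 36.8 and 3.8, all under the level needed for a test. Its heart rise was 7.93-fold, and its difference was -4.33 with 16 added to the signal and -5.60 with 1 added. C1qc, a chain of complement C1q, rose from 558 ± 105 (SD, n = 4) to 2257 ± 147 (SD, n = 5) in heart and fell from 451 ± 106 (SD, n = 5) to 287 ± 48.9 (SD, n = 5) in kidney. C1qa, another chain, gave 778, 676, 811 and 852 and then 2790.2, 2828, 3084, 2801 and 3131 in heart, and 571, 438, 675, 607 and 422 and then 592, 376, 486, 512 and 446 in kidney. Its kidney change of -0.16, SE 0.14 kept its 95% interval within 1.5-fold, so it counts among the genes that rose in heart alone.

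Across 22 macrophage genes, 18 rose in heart and 1 fell, while 2 rose and 9 fell in kidney. The median change was 0.92 in heart and -0.32 in kidney. The kidney change lay below the heart change for 16 genes (72.7%, against 10.4% of all genes) and above it for none. Of the 22, 7 went opposite ways: Cd163, Lyz1, C1qc, Lyz2, Mrc1, Adgre1 and Cd68. The signals of 23 macrophage genes together spanned 13610 to 15820 in heart at 1 week and 34620 to 40190 at 4 weeks, and in kidney 10390 to 13190 and then 9061 to 12350. Csf1r, the receptor that macrophages need to survive, rose in both organs (kidney 0.40, heart 1.15), and Cx3cr1, the fractalkine receptor, fell in both (kidney -0.82, heart -0.66) with no called difference. F13a1, the coagulation factor XIII gene also made by tissue macrophages, was no list member and gave 521, 659, 480.4 and 595 in heart at 1 week and 2168, 2739, 2485, 2245 and 2667 at 4 weeks. Its kidney signal fell from 258 ± 45.6 (SD, n = 5) to 120.1 ± 37.2 (SD, n = 5).

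Antigen presentation was followed by 15 MHC genes, of which 5 rose in kidney and 13 in heart. The difference was called for 2 (13.3%, against 18.4% of all genes), among them H2-Ab1, a class II chain (kidney -0.05, heart 3.20). Both had the kidney below (13.3%, against 10.4% of all genes). The list's median difference was -0.62, and at an unadjusted p under 0.05 in limma 10 lay below and 0 above. H2-Aa (kidney 2.56, heart 2.88), H2-Eb1 (0.92, 1.46) and Cd74 (1.71, 2.36), also of the class II pathway, rose in both organs without a called difference. H2-DMa rose in heart (0.63) and was not called in kidney (-0.10), again without a called difference. Of 21 interferon response genes, 9 rose in kidney and 16 in heart, with medians of 0.39 and 0.84. The kidney change lay below for 10 (47.6%, against 10.4% of all genes), such as Oas2, the RNA sensor (kidney 0.33, heart 1.76). That count ranged from 4 to 11 over the alternatives tried, and was 5 without kidney 1 week replicate 3, without kidney 4 week replicate 2 or without heart 4 week replicate 1, and 6 without heart 1 week replicate 3.

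**Figure D3:**
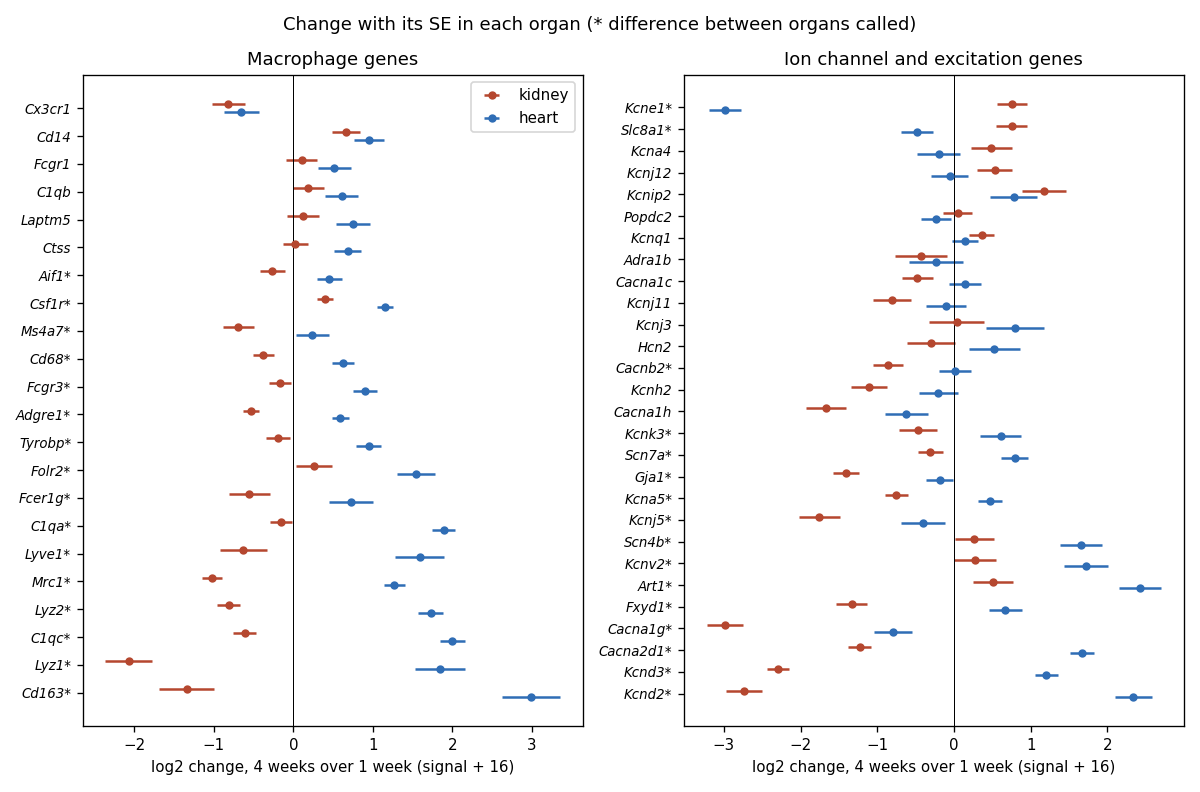
Log2 change from 1 to 4 weeks with its SE for the 22 macrophage genes (left) and 28 ion channel and excitation genes (right), kidney in red and heart in blue. An asterisk marks a called difference between organs. In 16 macrophage genes and 14 channel genes the kidney change lay below the heart change by that test.

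Metallothioneins, the small proteins that bind zinc and copper, also parted. Mt1 gave 22596, 9690.0, 17017, 12812 and 15026 in kidney at 1 week and 7720.0, 5141, 8103, 4669 and 5074 at 4 weeks, and 5764, 4665, 5068 and 4931 in heart at 1 week and 8965, 13588, 9457, 10767 and 12141 at 4 weeks. It fell 2.48-fold in kidney and rose 2.13-fold in heart, with no overlap in either (difference -2.40, SE 0.30, adjusted p = 1.2e-05). Mt2 gave 14799, 8372, 12465, 10616 and 11059.6 in kidney at 1 week and 4305, 3531, 4037, 2636 and 2977 at 4 weeks, and 1252, 1862, 1918 and 1823 in heart at 1 week and 1993, 3949.7, 2050.1, 3002 and 3309 at 4 weeks. Its difference was -2.41, SE 0.30 (adjusted p = 1.3e-05). The highest kidney array at 1 week for both genes was replicate 1, which also had the most Alb. Without the kidney arrays numbered 1 and 5 of that age the difference was -2.19 for Mt1 and -2.29 for Mt2.

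The genes are neighbours on chromosome 8, and both promoters are known to be driven through metal response elements bound by the zinc-sensing factor MTF-1. Since these neighbours moved together in both organs, their RefSeq promoter windows (GRCm38.p6, 250 bases before the transcript start and 50 after it) are shown with each match to the element's core in capitals. The motifs searched were TGCACNC and TGCGCNC on both strands. Mt1 lies at chr8:94178839-94179138 and Mt2 at chr8:94172368-94172667, both on the plus strand.
Mt1: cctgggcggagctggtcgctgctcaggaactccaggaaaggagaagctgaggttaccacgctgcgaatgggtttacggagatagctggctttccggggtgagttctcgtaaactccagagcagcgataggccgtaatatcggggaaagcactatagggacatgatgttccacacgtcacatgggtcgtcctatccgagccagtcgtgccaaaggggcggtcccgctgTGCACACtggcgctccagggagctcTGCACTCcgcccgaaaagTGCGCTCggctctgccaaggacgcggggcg
Mt2: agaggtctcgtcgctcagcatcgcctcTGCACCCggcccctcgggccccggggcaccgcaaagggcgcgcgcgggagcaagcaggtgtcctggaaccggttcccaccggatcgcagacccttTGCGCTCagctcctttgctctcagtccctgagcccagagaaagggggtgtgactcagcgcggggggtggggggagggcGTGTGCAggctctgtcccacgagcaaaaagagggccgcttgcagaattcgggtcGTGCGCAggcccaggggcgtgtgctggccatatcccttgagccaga
The window of Mt1 held 3 matches and that of Mt2 held 4. The first 250 bases of each window lie before the transcript start. The Mt1 matches at bases 253 to 259 and 271 to 277 thus lay past the start, as did the Mt2 match at 255 to 261. Of 32851 promoters of the same length in the table, 25.7% held at least 1 match and 1.97% at least 3. A match describes the letters and not a bound site.

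Insulin-like growth factor signalling split by member. Igfbp3, the main carrier of IGF in blood, fell in kidney from 4839 ± 506 (SD, n = 5) to 2018 ± 334 (SD, n = 5) and rose in heart from 315 ± 15.5 (SD, n = 4) to 445 ± 99.0 (SD, n = 5). Igfbp6, a binding protein that prefers IGF2, went the same ways (-0.65 and 0.86). The receptor gene Igf1r rose in kidney (0.33) and fell in heart (-0.69), as did Igfbp4 (0.33 and -0.38). Igfbp2 fell in kidney (-2.41) with a heart change of -0.43. Of 24 genes of the growth hormone, IGF and insulin axis, 11 differed (45.8%, against 18.4% of all genes). In 5 the kidney change lay above and in 6 below, and the list's medians were -0.03 in kidney and 0.05 in heart. The imprinted cell cycle inhibitor gene Cdkn1c gave 12816, 7812, 9379, 9038 and 8798 in kidney at 1 week and 658, 599, 931, 733 and 673 at 4 weeks, against 804, 1341, 1259 and 1230.3 and then 761, 849, 709.9, 922 and 751 in heart. It fell in both organs, with log2 changes of -3.70, SE 0.16 in kidney and -0.51, SE 0.17 in heart. Of 28 imprinted and fetal growth genes, 23 fell in kidney and 20 in heart. The difference was called for 10 (35.7%, against 18.4% of all genes), with the kidney lower in 8 (28.6%, against 10.4%).

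Genes that rose in kidney while the heart stayed within 1.5-fold numbered 111 (0.791%; 218 with 64 added to the signal in place of 16), of which 88 also reached a signal of 117.9 in heart and 23 did not. For those 23 a flat heart value says only that the probe set was dim. In 2 of the 111 the small heart change was itself called.

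Egf, the epidermal growth factor precursor made in the thick ascending limb and distal tubule, gave 1320.2, 963, 1039, 1177 and 837 in kidney at 1 week and 20157, 20701, 28776, 22513 and 26167 at 4 weeks. Heart gave 268, 296, 286 and 209 and then 269.7, 242, 231, 276 and 293. The kidney rose 21.9-fold (log2 4.45, SE 0.14) and the heart change was -0.01, SE 0.14. Errfi1, which encodes a feedback inhibitor of the EGF receptor, rose in kidney from 2169 ± 590.5 (SD, n = 5) to 12861 ± 3298 (SD, n = 5), with heart at 752 to 827 and then 544 to 1125. A ligand of the receptor and an inhibitor of it both rose in kidney.

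Ephx2, the soluble epoxide hydrolase that breaks down fatty acid epoxides, was at 1234, 1297, 1441, 1356 and 1113 in kidney at 1 week and 5188, 4684, 5218, 4937 and 5249.9 at 4 weeks. In heart it was already at 5041, 4753, 5161 and 5434 at 1 week and then 7218, 6551, 5739, 6619 and 6744, so the kidney reached the heart's earlier level. Its heart rise of 0.36 was small but called, and the difference was 1.60, SE 0.13 (adjusted p = 9.9e-08). Eci3, an enoyl-CoA isomerase (kidney 2.89, heart 0.02), Ddo, the D-aspartate oxidase of peroxisomes (2.42, -0.16), and Slc51a, a subunit of the bile acid and steroid exporter (2.27, -0.19), also rose in kidney. So did Slc5a10, a sodium-coupled sugar carrier (2.06, -0.07), and Gjb2, which encodes connexin 26 (1.89, 0.17). Hnf4a, a nuclear receptor that directs the proximal tubule programme, rose in kidney (1.13) with a heart change of -0.10. Among genes dim in heart, the retinol dehydrogenase gene Rdh16f2 went from 366 ± 40.3 (SD, n = 5) to 9806 ± 1152 (SD, n = 5) in kidney, and Dio1, the deiodinase that activates thyroid hormone, had a kidney change of 3.15, SE 0.16.

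The lists of tubular and hepatic-type metabolism followed. Of 38 proximal tubule transport genes, 32 rose and none fell in kidney by limma (none at an unadjusted p under 0.05 either). In heart 4 rose and 3 fell. The kidney change lay above for 22 (57.9%, against 8.05% of all genes) and below for none. The list's median was 1.18 in kidney and -0.02 in heart, and only 16 of the 38 were bright enough for a test in both organs. Slc22a12, the urate exchanger of the brush border, rose in kidney (2.00) and fell in heart (-0.84), and Cubn, the endocytic receptor cubilin, did too (0.73 and -1.99, from a heart mean of 254). Of 39 genes of xenobiotic metabolism, 32 rose in kidney and 16 in heart, and 26 differed (66.7%, against 18.4% of all genes). The kidney lay above in 21 (53.8%, against 8.05% of all genes). Of 35 genes of amino acid and organic acid breakdown, 30 rose in kidney and 15 in heart. All 16 that differed (45.7%, against 8.05% of all genes) had the kidney above. Of 23 genes of peroxisomes and ketone bodies, 20 rose in kidney and 9 in heart. The kidney lay above in 14 (60.9%, against 8.05% of all genes). Of 33 genes of fatty acid oxidation, 29 rose in kidney and 13 in heart, and 6 differed, a share of 18.2% against 18.4% of all genes. All 6 had the kidney above (18.2%, against 8.05% of all genes).

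Falls confined by the same rule to kidney comprised 132 genes (0.94%), 121 of them bright in both organs, and in 5 the small heart change was called. The count was 83 with median centring and 80 with the left-out heart array put back. Secreted and smooth muscle genes of the stroma were at the head. Ccdc80, a secreted matrix protein gene, gave 4961, 4031, 4159, 4331 and 3752 in kidney at 1 week and 425, 445, 377, 416 and 352 at 4 weeks. Heart gave 2900.2, 3719, 3999 and 4112 and then 4717, 3143, 3842, 4452 and 4579. The organs were alike at 1 week and about 10-fold apart at 4 weeks: the kidney change was -3.35, SE 0.13 (10.2-fold) and the heart change 0.17, SE 0.14.

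Acta2, the smooth muscle actin gene, gave 14246, 12338, 14266, 12591 and 10751 in kidney at 1 week and 2332, 2479, 2147, 2124 and 2986 at 4 weeks, and 15333, 13066, 10748 and 16544 and then 16884, 13794, 14242, 14194 and 13562 in heart. It fell 5.3-fold in kidney, with a heart change of 0.08, SE 0.14. Islr, a gene of stromal cells, fell from 1794 ± 131 (SD, n = 5) to 322 ± 43.3 (SD, n = 5) in kidney and was at 1713 ± 281 (SD, n = 4) and then 1946 ± 392 (SD, n = 5) in heart. Adamts1, a matrix protease (-2.22), Cpe, a prohormone-processing carboxypeptidase (-2.17), Thy1, a surface protein of fibroblasts and T cells (-2.01), and Reck, an inhibitor of matrix metalloproteinases (-2.15), fell in kidney likewise. Among genes dim in heart were the Wnt agonist gene Rspo3 (-1.55) and Hoxd10 (-1.44), a patterning gene.

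Matrix genes fell in both organs, and further in kidney. Of 52 collagen and matrix genes, 48 fell in kidney and 37 in heart, with medians of -1.80 and -0.78. The kidney change lay below for 28 (53.8%, against 10.4% of all genes) and above for 3 (5.77%, against 8.05%). Dcn, the collagen-binding proteoglycan decorin, was the 1 member that went opposite ways: it fell from 7307 ± 1085 (SD, n = 5) to 2187 ± 178 (SD, n = 5) in kidney and rose from 17338 ± 1327 (SD, n = 4) to 24537 ± 3365 (SD, n = 5) in heart. Smoc2, a matrix-associated calcium-binding protein gene outside the list, gave 1713, 2034, 1829.7, 2126 and 2085 and then 545, 491, 447, 597 and 452 in kidney and 1179, 1106, 1478 and 1332 and then 2821, 2937, 2242, 2597 and 2928 in heart. Its difference was -3.00, SE 0.17 (adjusted p = 9.1e-10). Thbs2, a thrombospondin gene (kidney -3.43, heart -0.61), and Mfap5, a microfibril gene (-2.40, 0.48), also differed. Of 15 podocyte and glomerular genes, 11 fell in kidney and 7 in heart. All 9 that differed (60%, against 18.4% of all genes) had the kidney below. Among them was Wt1 (-2.16 and -0.84), the podocyte and mesothelial transcription factor.

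**Figure D4:**
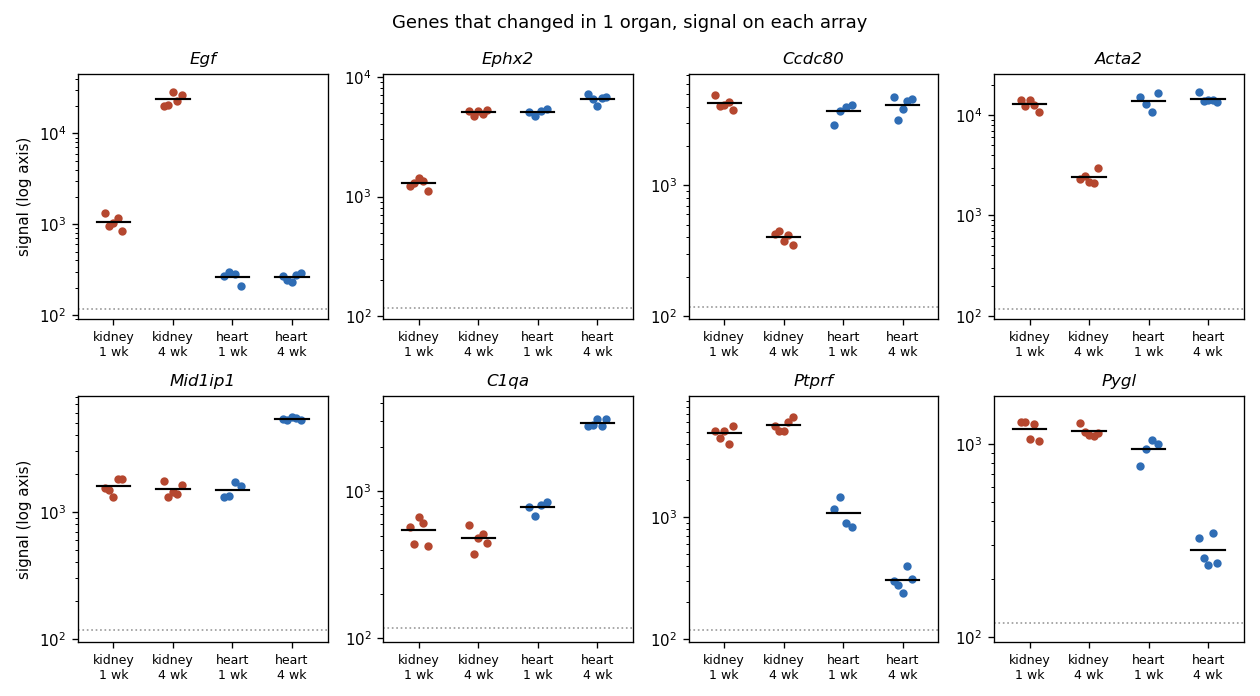
Signal on each array (log axis) of 8 genes that changed in 1 organ, kidney in red and heart in blue, with means as bars and the signal of 117.9 as a dotted line. Egf and Ephx2 rose in kidney, Ccdc80 and Acta2 fell in kidney, Mid1ip1 and C1qa rose in heart, and Ptprf and Pygl fell in heart.

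Rises in heart with the kidney within 1.5-fold numbered 49 (0.349%), 41 of them bright in both organs, and in 2 the small kidney change was called. The count was 74 with 64 added to the signal, 31 without the kidney arrays of 1 week numbered 3 and 4, and 25 with the left-out heart array put back. Mid1ip1, which encodes an activator of acetyl-CoA carboxylase and so of fatty acid synthesis, gave 1311, 1344, 1709 and 1611 in heart at 1 week and 5331, 5327, 5564, 5441 and 5250.3 at 4 weeks. Kidney gave 1541, 1480.4, 1313, 1808 and 1818 and then 1742, 1319, 1432, 1382 and 1638. The groups other than heart at 4 weeks overlapped one another. The heart rise was 3.6-fold, and the difference was -1.93, SE 0.16 (adjusted p = 1.5e-07). Adh1, an alcohol and retinol dehydrogenase, rose in heart from 369.6 ± 75.0 (SD, n = 4) to 1634 ± 339 (SD, n = 5) beneath a kidney level of 5299 to 8387 and then 5813 to 8229. Scara5, a ferritin receptor (1.74), Fbxo31, a ubiquitin ligase subunit (1.75), Arrdc2, an arrestin-domain gene (1.94), and Art3, an ADP-ribosyltransferase family gene (1.72), rose in heart as well. The differences of Scara5 and Art3 were not called with the mean over all probe sets of each gene. Trim54, a sarcomere-bound ubiquitin ligase gene, rose from 535 ± 88.4 (SD, n = 4) to 2725 ± 322 (SD, n = 5) and was dim in kidney. Of 35 genes of adult cardiac contraction, 10 rose and none fell in heart by limma (none at an unadjusted p under 0.05 either). In kidney 7 rose and 5 fell, and 11 of the 35 differed between organs (31.4%, against 18.4% of all genes). Of these 35, 18 were bright in both organs.

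Falls in heart with the kidney within 1.5-fold numbered 33 (0.235%; 20 without the kidney arrays of 1 week numbered 3 and 4), 30 of them bright in both. Ptprf, a receptor tyrosine phosphatase, gave 1163, 1455, 889 and 826 in heart at 1 week and 297, 276, 238, 395 and 313 at 4 weeks, and 5041, 4479, 5118, 3985 and 5605 and then 5569, 5029, 5047, 6049 and 6643 in kidney. The heart fell 3.39-fold and the kidney change was 0.23, SE 0.16. Bex4, a member of a small family of microtubule-binding proteins, fell in heart from 747 ± 154 (SD, n = 4) to 116 ± 12.7 (SD, n = 5), with kidney at 1282 ± 347 (SD, n = 5) and then 1266 ± 199 (SD, n = 5). Phldb2, a cortical anchoring protein of microtubules, fell in heart by 3.44-fold. Spc25, a kinetochore subunit (-1.85 in heart, -0.03 in kidney), and Spag5, a spindle protein (-1.72, -0.10), fell in heart while most cell cycle genes fell in both organs. The other probe sets of Spc25 and of Scara5, 1 for each gene, had a difference of the opposite sign.

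Of 12 genes of the fetal and immature cardiac sarcomere, 6 of them bright in both organs, 7 fell in kidney and 7 in heart. The kidney change lay above for 2 (16.7%, against 8.05% of all genes), Tnni1 and Myh7. It lay below for 5 (41.7%, against 10.4%). These were Acta2 as above, the skeletal actin gene Acta1 (-2.11) and the smooth muscle gene Tagln (-1.44). The slow skeletal troponin T gene Tnnt1 (-1.13) and the tropomyosin gene Tpm2 (-0.92) were the rest. The difference of Acta1 was no longer called without kidney 1 week replicate 1 or 2, kidney 4 week replicate 4, heart 1 week replicate 4 or heart 4 week replicate 2, with values of -2.05 to -1.88. That of Tpm2 lost its call with median centring, with the left-out heart array put back and with the mean over all probe sets. Over the alternatives it spanned -1.08 to -0.01. That of Tnnt1 lost its call with 64 added to the signal and spanned -2.14 to -0.33. The list's median difference was -0.29, and the natriuretic peptide genes Nppa and Nppb and the cardiac stress gene Ankrd1 had no call in either organ. Tnni1, the slow skeletal troponin I of the fetal heart, had the largest difference of the list but was dim in kidney. It gave 17264, 17501, 19287 and 22089 in heart at 1 week and 22.5, 29.3, 16.6, 25.6 and 41.1 at 4 weeks, and at most 83.9 on any kidney array. The heart change was -8.81, SE 0.28, whose size depends on the offset because the signal at 4 weeks is near it. Myh7, the fetal myosin heavy chain of mouse heart, fell in heart as well (-2.68), and its kidney change was 0.34 with no call.

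**Figure D5:**
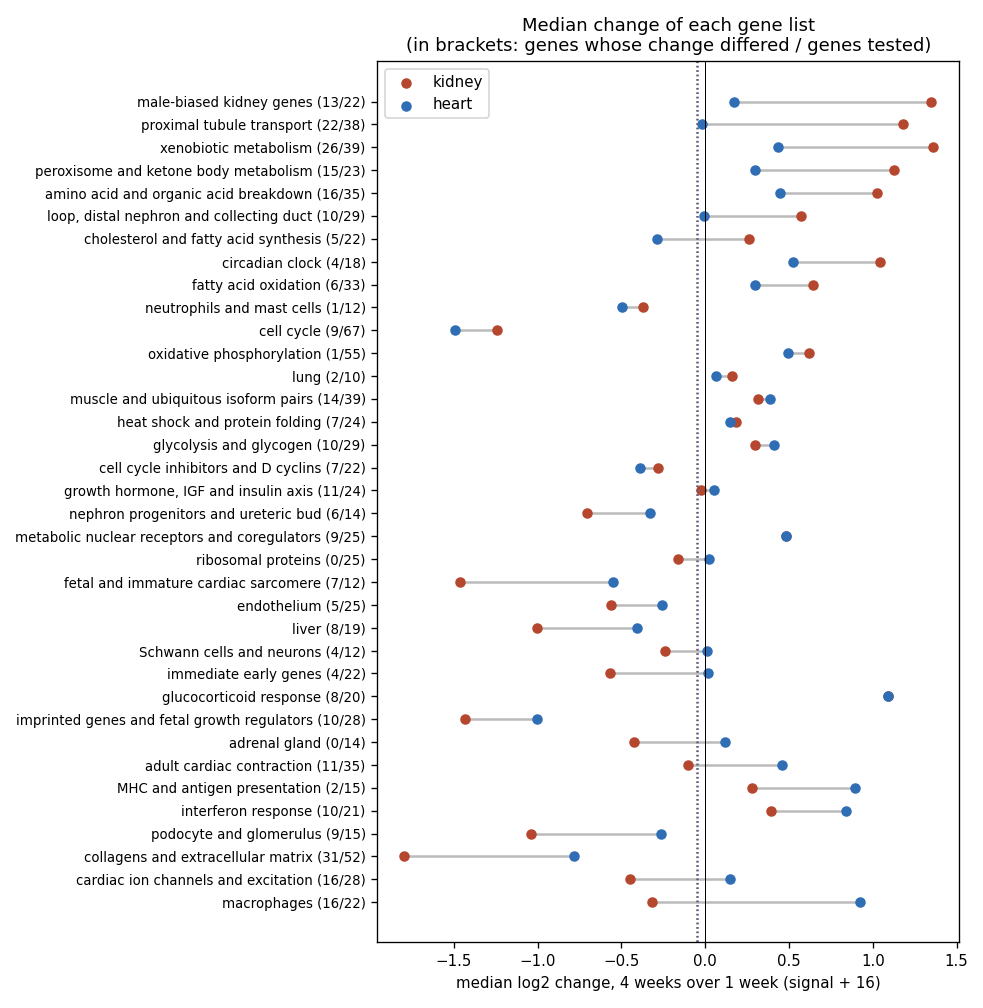
Median log2 change from 1 to 4 weeks of each gene list with at least 10 genes tested, kidney in red and heart in blue, ordered by the list's median difference. Brackets give the genes with a called difference and the genes tested, and dotted lines mark the medians of all genes, -0.05 in kidney and -0.04 in heart. Male-biased kidney genes and proximal tubule transport lie at the top, and macrophages, ion channels and matrix at the bottom.

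Lung arrays of 1 and 4 weeks, 9 in all, played no part in the tests that chose these genes and give their change in a further organ. They did enter the choice of probe sets and the signal cut, both taken over all 40 arrays. The array labelled lung 1 week replicate 4 was left out: it gave 36020 for Myh6 and 1982 for Sftpc, while Myh6 spanned 610.8 to 1868 and Sftpc 23330 to 28920 over the 4 lung arrays kept from 1 week. Whether it and the heart array left out were exchanged cannot be told from the labels. Over 13605 genes tested in lung, 19.5% rose and 19.4% fell. Of genes that rose in kidney and fell in heart, 112 were tested in lung, where 24 rose and 26 fell. Of those that fell in kidney and rose in heart, 145 were tested, and 54 rose and 23 fell. For genes that rose in kidney alone the counts were 30 up and 11 down of 81, and for those that fell in kidney alone 16 up and 55 down of 123. For genes that rose in heart alone they were 24 up and 1 down of 43, and for those that fell in heart alone 2 up and 14 down of 31. With the left-out lung array put back as labelled, 3056 genes were called in lung in place of 5291, and the counts up and down were 11 and 17 for rises in kidney against falls in heart and 35 and 13 for the reverse. They were 17 and 5 for rises and 6 and 26 for falls in kidney alone, and 14 and 0 for rises and 0 and 11 for falls in heart alone, where limma at an unadjusted p under 0.05 gave 19 and 0, and 0 and 15. Ddc fell in lung (-1.02), Ccdc80 fell (-0.61), Errfi1 rose (1.53) and Cd163 rose (1.78).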

How the data were processed

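Per the labels' protocols, Trizol extracts of total RNA were made into biotinylated cRNA for Affymetrix arrays. The submitters' processing notes name RMA and Partek 6.6. The deposited values are linear intensity values (0 to 69706.7) scaled by the authors to a trimmed mean of 500, not RMA's log2 values. How they were summarised is not given in the sources used here, and there are no detection calls.

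Of 45101 probe sets, 34958 name 1 gene, and each of 18194 genes was represented by its brightest probe set over all 40 arrays. Genes whose highest group mean reached the 40th percentile (117.9) were tested on log2(signal + 16) by lmFit and eBayes of limma 3.58.1 under R 4.3.3 (19 arrays, 4 group means, Benjamini-Hochberg over 14041 genes, threshold 0.05). Files were parsed by data.table (version 1.17.8) and plotted in matplotlib. The fit was tested on simulated data. The number of arrays limits precision, and p-values measure the spread between samples.

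Opposite genes passed all 3 tests with opposite signs. One-organ genes changed at least 2-fold, differed, and had the other organ's 95% interval within 1.5-fold.

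The members, the 42 lists (1067 of 1185 entries on the array) and the rules were chosen with earlier results of these data known. Named genes were the 10 with the largest differences per opposite set, 8 bright and 5 dim genes per one-organ set, up to 4 per list and a fixed set. Adgre1, Ankrd1, Cd68, Csf1r, Cx3cr1, Fxyd1, Gja1, Igf1r, Igfbp4, Igfbp6, Kcna5, Mrc1, Pygb, Slc8a1, Tagln, Tnnt1 and Tpm2 were named after their values were seen.

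Residuals of same-numbered arrays correlated at -0.361 to 0.471 (median 0.0276, 27 pairs), against -0.397 to 0.597 for other pairs. Among arrays numbered 1, kidney at 1 week gave 0.445 with heart at 1 week and 0.335 with heart at 4 weeks. The heart arrays numbered 1 gave 0.471 with each other, and pairs with kidney at 4 weeks gave -0.122 to -0.0225. Whether arrays shared an animal or a batch cannot be told from these values. Residuals of kidney and heart arrays of the same age and description number correlated at -0.175 to 0.271 (median -0.0108, 6 pairs). As a random block, that number gave a correlation of 0.0463. The alternatives changed the offset, scaling, filter, probe set rule, arrays used, blocks and variance model. Kidney at 8 weeks, lung and the heart array left out entered the choice of probe sets and the signal cut, both taken over all 40 arrays. Kidney at 8 weeks and that heart array entered the fits only as alternatives: a fit of 38 arrays, and a fit of 20 arrays with the heart array as labelled. Lung was tested on 9 arrays, and including lung 1 week replicate 4 was an alternative chosen after seeing the data.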

Additional observations from a re-analysis of the deposited data

Results flagged for a closer look

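The interaction itself was called for 2590 genes by limma. Of these, 126 rose in kidney and fell in heart, 150 did the reverse, 111 rose and 132 fell in kidney with heart within 1.5-fold, and 49 rose and 33 fell in heart with kidney within that range. On the array left out, labelled heart 1 week replicate 5, the surfactant gene Sftpc gave 27186.8.

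For 34 genes given per array, 1 array of a group was set against the rest by Dixon's criterion, and 11 of 136 groups had an array standing apart. Chance gives about 1 in 20. The first heart array of 1 week stood apart for 4 genes. On it Cyp51 gave 346.2 against 237.2 to 250.0 on the others, Hk2 gave 4162 against 2582 to 2706, Mt2 gave 1252 against 1823 to 1918, and Cdkn1c gave 804.3 against 1230 to 1341. On the first heart array of 4 weeks Acta2 gave 16880 against 13560 to 14240. These are the heart arrays whose description has an upper-case letter, and their poly-A control signals (log2) were 12.29 at 1 week and 12.46 at 4 weeks, against 11.18 to 11.52 and 11.17 to 11.45 on the other heart arrays used. Its part in these values was not tested. Without both of them the difference between organs was 2.67 for Cyp51, -2.79 for Hk2, -2.38 for Mt2, -3.05 for Cdkn1c and -2.48 for Acta2.

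In kidney at 1 week, Shmt1 gave 1003 on replicate 5 against 1249 to 1303, C1qc gave 638.4 on replicate 5 against 384.3 to 431.6, and Htra3 gave 1237 on replicate 3 against 1538 to 1675. In kidney at 4 weeks, Errfi1 gave 18650 on replicate 3 against 10980 to 12520, Adh1 gave 5813 on replicate 4 against 7443 to 8229, and Pygl gave 1290 on replicate 1 against 1105 to 1154.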

How the results depend on the processing

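Many of the 100 genes named above with a called difference were chosen for large differences on these arrays, which favours keeping the call. Under 37 alternatives, 79 of the 100 kept their call and sign in every one. The other 21 kept their sign and lost the call in at least 1. For 13 this was only when the heart array with lung transcripts was put back as labelled: Adh1, Cebpb, Cubn, Dbp, Ddo, Ephx2, Igfbp2, Kcna5, Kcne1, Lyz2, Myh7, Tagln and Tnni3. The rest, Acta1, Art3, Csf1r, Hoxd10, Ryr2, Scara5, Tnnt1 and Tpm2, lost it in at least 1 other alternative. With lung 1 week replicate 4 put back, chosen after seeing the data, lung had 3056 calls instead of 5291. The difference of Afp, a liver marker without a result of its own above, turned to 0.27 with 1 added to the signal. With 64 added, 218 genes rose in kidney alone and 74 in heart alone. Median centring left 857 genes with the kidney change below, 65 and 71 genes going opposite ways (rising and falling in kidney) and 83 falling in kidney alone; 51.3% of its calls lay above, against 43.6% in the fit reported. With heart 1 week replicate 5 included, 931 lay below, 85 fell in kidney and rose in heart, 80 fell in kidney alone and 25 rose in heart alone. One fit of 38 arrays of all groups gave 204 genes rising in kidney and falling in heart. Without the kidney 1 week arrays numbered 3 and 4, 31 genes rose and 20 fell in heart alone, and the adrenal list, with 0 calls, had a median difference of 0.02 instead of -0.54. Without those numbered 1 and 5, the liver list had 5 calls instead of 8 and a median of 0.03 instead of -0.37.

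With the replicate block the count of differences was 2586, no count over all genes moved by over 1.5 times, and none of the 100 genes lost its call. Leaving out 1 array at a time gave 2245 to 2698 differences, 982 to 1187 above and 1263 to 1511 below, 5007 to 5638 calls in kidney and 3035 to 3738 in heart. Opposite genes numbered 95 to 139 (rising in kidney) and 121 to 155 (falling), kidney-only genes 90 to 124 (rising) and 104 to 137 (falling), and heart-only genes 37 to 61 (rising) and 27 to 41 (falling). In every case the cause was not tested. Signal over background limits what could be seen: genes under 117.9 in all groups were not tested.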

Other observations

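Some lists not described above moved between the organs in parts. Of 20 glucocorticoid response genes, 15 rose and 4 fell in kidney, and 13 rose and 1 fell in heart, with like medians of 1.09 in each. Yet 8 differed (40%, against 18.4% of all genes), 3 with the kidney above and 5 with it below. Cebpb, a transcription factor of metabolic and immune genes, rose in heart (2.35; kidney 0.60), Sgk1, a kinase that activates sodium reabsorption, rose in kidney (1.57; heart 0.34), and Angptl4, an inhibitor of lipoprotein lipase, rose in kidney (1.05) and fell in heart (-1.15). Of 18 circadian clock genes, 11 rose in kidney and 10 in heart. The difference was called for 4 (22.2%, near the 18.4% of all genes), with the kidney above in 3 and below in 1. Npas2, a partner of the clock heterodimer, differed most, with -2.61 in kidney and -0.48 in heart, and Dbp, a clock output gene, rose in both (3.23 and 1.89). Hour of sampling is not given in the labels.

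Of 22 male-biased kidney genes, 14 rose in kidney and 2 in heart, and 13 differed (59.1%, against 18.4% of all genes). Only 8 were bright in both organs. Serpina1f, a serine protease inhibitor gene, had the largest difference (6.68) and Akr1c21, a steroid dehydrogenase, followed (4.74). Of 25 endothelial genes, 17 fell in kidney and 8 in heart, and 5 differed (20%, against 18.4% of all genes). All 5 had the kidney below (20%, against 10.4% of all genes). At an unadjusted p under 0.05 in limma, 14 lay below and 1 above. The summed signal of 25 endothelial genes was 45280 to 53180 in kidney at 1 week and 30040 to 34390 at 4 weeks, and 83690 to 92870 and then 78960 to 85390 in heart.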
